A study of Homo sapiens with 6 samples.

Results

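The genes described here are the zinc finger genes of human chromosome 19 whose symbol is ZNF followed by a number and at most 1 letter. The rule, applied to the symbol and the first chromosome entry of each row, found 243 genes among the 19923 protein-coding genes of the count tables. Another 1228 genes of the tables lie on chromosome 19, and 262 genes with such a symbol lie on other chromosomes. The libraries were RNA-seq of poly(A)-selected RNA from Kelly, an established human neuroblastoma cell line with amplified MYCN that the labels give as wild type in genotype. Cells received a control siRNA (siControl, 3 libraries) or an siRNA against METTL3 (siMETTL3, 3 libraries), transfected with a lipid reagent, and were collected after 72 hours. METTL3 is the catalytic subunit of the enzyme that writes N6-methyladenosine into mRNA, and the comparison asks how its depletion changed the transcriptome. Both groups are the same line, so every value describes a single tumour's cells, and the labels do not say whether the libraries of a group came from separate cultures. The p-values therefore measure only the spread between these libraries, which may be technical.

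ZNF proteins bind DNA through arrays of C2H2 zinc fingers, each of which contacts a few bases, and neighbouring fingers are joined by a short conserved linker. Most of those encoded on chromosome 19 also carry a KRAB domain, which recruits the corepressor TRIM28. TRIM28 in turn brings in SETDB1, a histone H3 lysine 9 methyltransferase, and heterochromatin proteins of the CBX family, and many KRAB zinc finger proteins use this route to silence transposable elements. The genes arose largely by tandem duplication and still lie in clusters of close relatives along the chromosome, often with nearly the same exon layout and with promoters in common by descent.

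A new cluster was started wherever consecutive gene starts lay over 1 Mb apart, and groups of fewer than 5 genes were pooled as scattered. This gave 9 clusters and left 11 of the 243 genes scattered. Clusters 1 to 4 lie on the short arm of the chromosome and clusters 5 to 9 on the long arm (all coordinates GRCh38). Cluster 4, from 19668796 to 23945159, holds 36 genes and ends near the centromere. Cluster 9, from 55476617 to 58481230, is the largest with 57 genes and reaches close to the end of the long arm.

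Promoter sequences from RefSeq (GRCh38.p14, 250 bases before to 50 bases after the annotated start) were matched by symbol for 212 of the 243 genes. In cluster 4 the promoters of different genes were close copies of each other, with a median of 77.3% identical bases over 378 pairs. The medians of the other clusters lay between 50.3% and 54.8%, and pairs from different clusters had a median of 50% over 19276 pairs. The 4 promoters that follow come from cluster 4 and are shown because close copies stood in front of genes called in opposite directions. ZNF43 and ZNF208 were called lower after METTL3 depletion, and ZNF430 and ZNF100 were called higher. Each is written 5′ to 3′ on the gene's own strand, with letters that match a searched motif on either strand in capitals: GGGCGG (a GC box), CCGGAAG (a core bound by ETS factors), GCATGCGC (an NRF1 core) and AAGATGGC (a YY1 core). On the opposite strand CCGGAAG reads CTTCCGG, and where it directly follows a GC box the capitals run together.
ZNF43 (chr19:21836133-21836432, minus strand): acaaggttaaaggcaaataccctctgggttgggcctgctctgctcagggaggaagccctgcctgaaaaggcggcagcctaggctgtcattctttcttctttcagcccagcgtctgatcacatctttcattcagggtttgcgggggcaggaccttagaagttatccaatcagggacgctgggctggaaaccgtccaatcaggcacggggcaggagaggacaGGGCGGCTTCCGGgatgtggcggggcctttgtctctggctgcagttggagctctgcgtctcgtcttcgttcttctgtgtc
ZNF430 (chr19:21020407-21020706, plus strand): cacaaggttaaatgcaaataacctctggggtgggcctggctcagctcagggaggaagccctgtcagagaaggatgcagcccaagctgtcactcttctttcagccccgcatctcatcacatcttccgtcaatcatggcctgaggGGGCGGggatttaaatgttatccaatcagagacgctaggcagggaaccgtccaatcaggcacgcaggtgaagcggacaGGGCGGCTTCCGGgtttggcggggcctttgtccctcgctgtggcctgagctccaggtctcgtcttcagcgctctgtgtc
ZNF208 (chr19:22010894-22011193, minus strand): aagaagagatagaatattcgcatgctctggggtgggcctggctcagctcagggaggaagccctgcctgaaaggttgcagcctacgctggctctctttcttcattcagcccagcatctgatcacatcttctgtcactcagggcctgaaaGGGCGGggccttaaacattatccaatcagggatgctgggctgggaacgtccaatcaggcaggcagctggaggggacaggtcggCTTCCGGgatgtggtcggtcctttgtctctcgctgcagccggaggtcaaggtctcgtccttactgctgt
ZNF100 (chr19:21767530-21767829, minus strand): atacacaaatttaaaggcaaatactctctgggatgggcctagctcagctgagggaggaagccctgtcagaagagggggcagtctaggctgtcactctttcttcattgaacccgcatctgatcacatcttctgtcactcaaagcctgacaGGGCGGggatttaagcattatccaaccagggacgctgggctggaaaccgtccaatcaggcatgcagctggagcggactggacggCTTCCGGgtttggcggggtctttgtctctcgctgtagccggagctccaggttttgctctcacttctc
The promoters of ZNF43 and ZNF430 were identical at 81.0% of 300 bases, and those of ZNF208 and ZNF100 also at 81.0%. All 4 hold the ETS letters and at least 1 GC box, and none of them holds the NRF1 or YY1 letters. The annotated start of ZNF43 used for this window lies inside the span over which its reads were counted, so other starts of the gene exist.

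**Figure D1:**
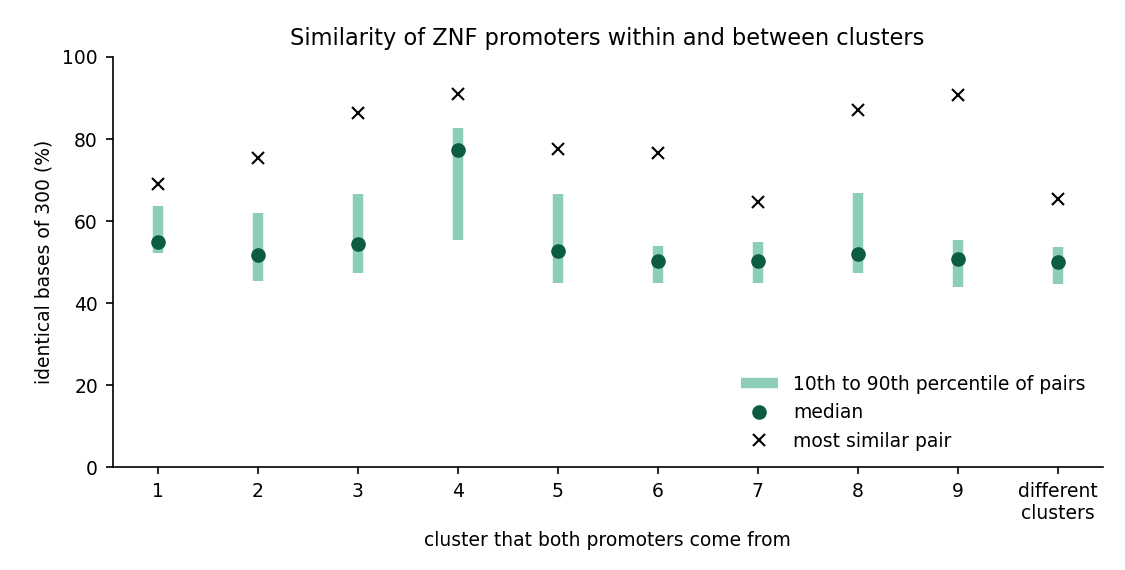
Percent of identical bases over 300 between aligned promoters of 2 ZNF genes, for pairs within each cluster and pairs from different clusters; bars run from the 10th to the 90th percentile of pairs, circles are medians and crosses the most similar pair. Cluster 4 stands at a median of 77.3%, while the other clusters lie near the 50% of pairs from different clusters.

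A second set comes from cluster 5, where neighbours with related promoters both fell. ZNF302 and ZNF181 were called lower, and their promoters were identical at 77.7% of 300 bases.
ZNF302 (chr19:34677428-34677727, plus strand): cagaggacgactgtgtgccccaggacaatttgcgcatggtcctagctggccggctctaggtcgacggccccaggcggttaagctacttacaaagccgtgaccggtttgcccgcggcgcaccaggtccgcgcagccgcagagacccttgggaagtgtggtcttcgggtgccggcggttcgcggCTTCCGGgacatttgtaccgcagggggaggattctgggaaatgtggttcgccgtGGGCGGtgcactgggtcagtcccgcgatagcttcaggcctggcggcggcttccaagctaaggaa
ZNF181 (chr19:34733993-34734292, plus strand): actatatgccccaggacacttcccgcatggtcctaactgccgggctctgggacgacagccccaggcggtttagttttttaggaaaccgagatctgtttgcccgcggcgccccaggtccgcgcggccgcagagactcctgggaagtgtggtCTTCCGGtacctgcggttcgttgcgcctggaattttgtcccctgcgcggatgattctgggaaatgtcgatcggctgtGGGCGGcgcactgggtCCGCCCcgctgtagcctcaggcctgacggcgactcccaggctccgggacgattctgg
Over all matched genes, the ETS letters were present in 45.3% of promoters, against 10.7% of all 27305 RefSeq promoters of the same length. The GC box was present in 68.4% against 44.6%, the YY1 letters in 6.60% against 3.03%, and the NRF1 letters in 4.25% against 3.27%. A TATA box (TATAAA) was present in 1.89% against 12.0%. The share with the ETS letters differed between clusters. Among the clusters with at least 10 matched promoters it ran from 8.33% in cluster 3 to 71.4% in cluster 4, and in the small clusters it was 0 of 5 in cluster 1 and 3 of 4 in cluster 5. Between directions it was 40% of the 20 promoters of genes called higher and 47.4% of the 19 promoters of genes called lower, and the GC box stood at 75% and 73.7%. These matches are descriptions of letters, not of bound sites.

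METTL3 itself measured 53.5, 52.8 and 56.2 CPM (counts scaled to a common library size) in siControl and 33, 31.8 and 34.3 CPM in siMETTL3. Every siMETTL3 library lay below every siControl library, and the log2 fold change was -0.71 ± 0.07 (SE; adjusted p = 4.68e-06, edgeR quasi-likelihood test with Benjamini-Hochberg adjustment over all 15311 genes tested). The span of METTL3 overlaps that of TOX4, so reads in the shared part could be counted for both genes. Libraries held 15430000 to 21565013 counts, the fewest in siControl replicate 3. All 12 listed markers of sympathetic neuroblasts were at 1 CPM or more in the mean of all libraries. Of these 12, HAND2, GATA3, GATA2, TH, DBH, MYCN and CHGA were called higher with siMETTL3 and ISL1, STMN2 and CHGB lower. Their summed level was 6751 to 7219 CPM in siControl and 9537 to 10152 CPM in siMETTL3, of which MYCN alone made up 3021 and 4638 CPM on average. Of the 6 fibroblast or mesenchymal markers 3 were at 1 CPM or more, with sums of 85.3 to 99.2 CPM in siControl and 87.2 to 93.8 CPM in siMETTL3, nearly all from PDGFRB. COL1A2, LUM and DCN were under 1 CPM, and COL1A1 was called higher, from 2.96 to 5.26 CPM. The 4 epithelial markers summed to 7.17 to 7.70 CPM and 8.08 to 10.4 CPM, mostly from EPCAM; KRT5 had 0 counts and KRT19 was called higher, from 0.969 to 2.17 CPM. Sums were 2.59 to 3.43 and 3.99 to 5.51 CPM for Schwann markers and 4.98 to 5.91 and 6.95 to 9.25 CPM for endothelial markers. The endothelial sums came mostly from VWF, which was called higher, from 4.66 to 7.54 CPM. PECAM1 and CDH5 were under 1 CPM. None of the 5 immune markers reached 1 CPM, with sums of 0.398 to 0.603 CPM in siControl and 0.322 to 0.682 CPM in siMETTL3. The part of these marker changes in the results on zinc finger genes was not tested.

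The zinc finger genes of chromosome 19 were low to moderately expressed and nearly all were transcribed. Depending on the library, 241 to 243 of them were seen with 1 count or more, and 237 passed the filter on low counts. The 6 that did not pass were ZNF541, ZNF556, ZNF723, ZNF729, ZNF763 and ZNF99, each with at most 13 counts in any library. ZNF723 had 0 counts in all 3 siControl libraries and 2, 4 and 4 counts with siMETTL3. The median of the tested genes' average log2 CPM was 4.15, against 5.07 for all genes tested. The 243 genes held 0.629%, 0.594% and 0.554% of all counts with siControl, and 0.604%, 0.599% and 0.604% with siMETTL3. Their summed level was 5972 ± 303 CPM in siControl and 5978 ± 41.1 CPM in siMETTL3 (SD, n = 3 each), so the summed level of the family was the same within the spread of the libraries. In bulk RNA, fewer cells expressing a gene and less of its RNA per cell cannot be told apart.

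Levels of different genes were compared per kilobase of the gene span over which reads were counted. On this scale ZNF121 had the highest level at 7.57 CPM per kb over all libraries, and ZNF146 followed at 6.62, ZNF358 at 4.55, ZNF460 at 4.31 and ZNF8 at 3.86 CPM per kb. The order depends on the length used: per kb of the canonical transcript ZNF565 came first at 93.4 CPM per kb, followed by ZNF146 at 47.8, with ZNF121 at 26.2. ZNF146 lies wholly inside ZNF565, so reads counted for ZNF146 were counted for ZNF565 too. Most of the ZNF565 count came from the span of ZNF146 (values below), so the first place of ZNF565 may not stand for this gene alone. ZNF146 encodes a protein made of zinc fingers with no KRAB domain. Of the 5 genes highest per kb of span, ZNF121 and ZNF358 were called lower, ZNF146 and ZNF8 were called higher, and ZNF460 was not called. ZNF460 measured 65.6, 54.1 and 66.8 CPM in siControl and 59.7, 56.4 and 59.8 CPM in siMETTL3, so its groups overlapped (log2 fold change -0.08 ± 0.08 SE; edgeR adjusted p = 0.449).

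After METTL3 depletion, 45 of the 237 tested genes were called at an adjusted p under 0.05, which is 19% of them, against 37.8% of all genes tested. Of these, 24 were called higher (10.1%, against 18.6% of all genes) and 21 were called lower (8.86%, against 19.2% of all genes). No member reached a 2-fold change in either direction: fitted log2 fold changes ran from -0.70 for ZNF439 to 0.48 for ZNF221. Among all genes tested, 3.35% were called with a change of at least 2-fold, and among ZNF genes of other chromosomes 3 of 247 were. The values of the 3 siControl and 3 siMETTL3 libraries did not overlap for 77 members (32.5%), against 49.9% of all genes, 36 with siMETTL3 higher and 41 with siMETTL3 lower. The count of members called higher changed when single libraries were left out, and so did the share of all genes called. The count was 13 without siControl replicate 2, 12 without siMETTL3 replicate 1, 12 without siMETTL3 replicate 2 and 15 without siMETTL3 replicate 3, and 28 without siControl replicate 1. In the same order of fits, 28.4%, 27.2%, 28.1%, 29.2% and 41.3% of all genes were called in either direction, against 37.8% with all libraries. The count called lower ran from 16 to 31 and was highest without siControl replicate 3, where 40.5% of all genes were called in either direction.

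The distribution of fold changes was narrow. The median log2 fold change of the tested members was -0.05, against 0.00 for all genes tested. Negative values were fitted for 144 members and positive values for 93. The median size of the change was 0.15 on the log2 scale, against 0.21 for all genes, and 172 members (72.6%) lay within 0.25 of no change, against 57.0% of all genes. ZNF genes of other chromosomes stood close to these values, with 55 of 247 called (22.3%) and a median size of 0.13. The other genes of chromosome 19 stood nearer to the whole table, with 295 of 878 called (33.6%) and a median size of 0.21. At matched level too, the share of members called was below that of other genes. Between 3 and 4 log2 CPM, 7 of 60 members (11.7%) were called, against 33.9% of 1448 other genes, with median standard errors of 0.13 in both. At 6 log2 CPM and over, 8 of 17 members (47.1%) were called, against 50.3% of 4689 other genes. No test of these differences between sets of genes was made.

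**Figure D2:**
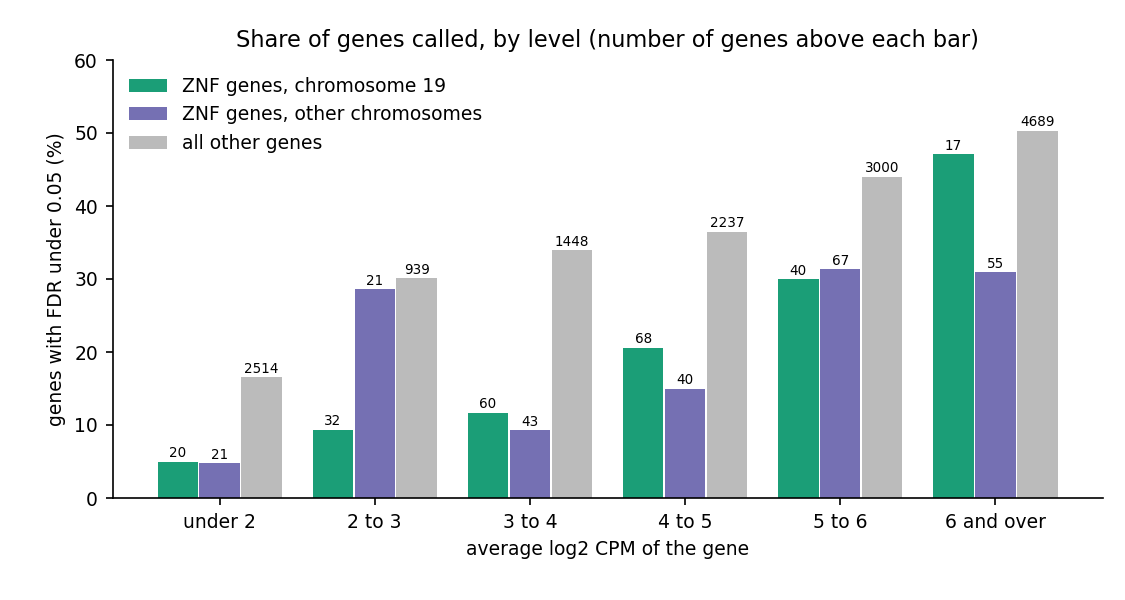
Percent of genes with an adjusted p under 0.05 (vertical axis) in bands of average log2 CPM (horizontal axis), for ZNF genes of chromosome 19, ZNF genes of other chromosomes and all other genes, with the number of genes above each bar. The share of chromosome 19 members rises from 5.00% under 2 log2 CPM to 47.1% at 6 and over and lies below that of other genes in each band.

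Among called genes whose groups did not overlap and whose log2 CPM averaged 2 or more, the 8 that fell most were ZNF181, ZNF816, ZNF260, ZNF358, ZNF208, ZNF302, ZNF229 and ZNF726. ZNF260, a zinc finger gene studied in heart muscle, measured 46.2, 45.9 and 48.4 CPM in siControl and 30.1, 32.3 and 32.8 CPM in siMETTL3. The siControl values lay within a narrow range and all siMETTL3 values lay well below them. It fell by 32.2% (log2 fold change -0.56 ± 0.07 SE; edgeR adjusted p = 4.91e-05), the smallest adjusted p of any member. ZNF181 measured 8.21, 10.4 and 10.7 CPM in siControl and 6.32, 6.25 and 6.28 CPM in siMETTL3. The groups did not overlap, and the gene fell by 35.4% (log2 fold change -0.63 ± 0.14 SE; edgeR adjusted p = 0.00337). Its neighbour ZNF302 measured 22.9, 29.9 and 27.9 CPM against 19.6, 19.9 and 17.8 CPM. Here too every siMETTL3 library was lower, by 28.8% in the fit (log2 fold change -0.49 ± 0.11 SE; edgeR adjusted p = 0.00267).

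ZNF816 measured 9.41, 7.86 and 8.63 CPM in siControl and 5.49, 6.57 and 5.06 CPM in siMETTL3, without overlap of the groups (log2 fold change -0.60 ± 0.15 SE; edgeR adjusted p = 0.00663). Of its span, 99.4% is also covered by the readthrough gene ZNF816-ZNF321P on the same strand, so most reads of ZNF816 could be counted for both genes. That readthrough gene had a log2 fold change of -0.41 ± 0.12 (edgeR adjusted p = 0.0121). ZNF358 measured 28.3, 30.8 and 33.5 CPM in siControl and 22.1, 20.4 and 21.3 CPM in siMETTL3. It fell by 31.0% (log2 fold change -0.53 ± 0.09 SE; edgeR adjusted p = 0.00039), with every siMETTL3 library below every siControl library. A second gene model on the same strand, AC008878.1, covers 75.5% of its span and had a log2 fold change of -0.54 ± 0.12. AC008878.1 averaged 13.2 CPM in siControl and 9.01 CPM in siMETTL3, against 30.9 and 21.3 CPM for ZNF358. Shared reads were counted for both genes, so only part of the ZNF358 reads can be shared with AC008878.1. For reads in shared parts, the counts do not tell which of the overlapping genes they came from.

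ZNF208, whose transcript holds 22 copies of the letters that encode the finger linker, measured 8.76, 10.1 and 10.2 CPM in siControl. Its siMETTL3 libraries held 5.93, 6.89 and 7.21 CPM, all below the siControl range (log2 fold change -0.53 ± 0.14 SE; edgeR adjusted p = 0.00775). ZNF229 measured 13.2, 15.9 and 16.9 CPM against 10.4, 10.7 and 12.0 CPM and fell by 27.8% (edgeR adjusted p = 0.00822). ZNF726 measured 35.5, 35.4 and 31.3 CPM against 28.0, 22.1 and 26.2 CPM and fell by 25.5% (edgeR adjusted p = 0.00367). For both genes the groups did not overlap. None of these 8 genes lost its call without any single library or under any alternative setting that could test it. ZNF439 had the lowest fitted value at -0.70 ± 0.21 but a level of only 4.54, 4.4 and 3.85 CPM in siControl and 1.94, 3.08 and 2.87 CPM in siMETTL3. Its edgeR adjusted p of 0.0192 became 0.0922 without siMETTL3 replicate 1 and 0.0676 without siControl replicate 2; it did not meet the level criterion and is given because it sets the range.

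By the same criteria the 8 that rose most were ZNF221, ZNF552, ZNF473, ZNF823, ZNF699, ZNF44, ZNF430 and ZNF536. ZNF473 encodes a zinc finger protein of the machinery that processes the ends of histone mRNA precursors. It measured 27.3, 23.0 and 25 CPM in siControl and 33.7, 35.1 and 33.5 CPM in siMETTL3. The siMETTL3 libraries agreed closely and all exceeded the siControl libraries, a rise of 35.7% (log2 fold change 0.44 ± 0.08 SE; edgeR adjusted p = 0.00112). ZNF536, known as a repressor in neuronal differentiation and the longest gene named here, measured 93.7, 81.0 and 79.0 CPM in siControl and 113, 107 and 112 CPM in siMETTL3. It rose by 30.6% without overlap of the groups (log2 fold change 0.39 ± 0.07 SE; edgeR adjusted p = 0.000695). Both genes lie outside the clusters, and each kept its call without any single library and under every alternative that could test it. ZNF473 overlaps VRK3 and was not part of the fit on genes without overlap.

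ZNF44 measured 17.6, 14.7 and 13.9 CPM in siControl and 20.1, 21.0 and 20.2 CPM in siMETTL3 and rose by 32.1% (log2 fold change 0.40 ± 0.11 SE; edgeR adjusted p = 0.00864). ZNF552 measured 16.0, 13.3 and 11.7 CPM against 19.7, 18.8 and 17.9 CPM and rose by 36.8% (log2 fold change 0.45 ± 0.12 SE; edgeR adjusted p = 0.00826). In both, siControl replicate 1 was the highest of its group and still lay below all siMETTL3 libraries. ZNF221 measured 5.15, 5.71 and 6.37 CPM in siControl and 8.75, 7.21 and 7.94 CPM in siMETTL3 (log2 fold change 0.48 ± 0.15 SE; edgeR adjusted p = 0.0207). ZNF823 measured 8.62, 8.81 and 8.63 CPM against 10.8, 11.5 and 12.8 CPM (log2 fold change 0.43 ± 0.12 SE; edgeR adjusted p = 0.0114). Neither gene's groups overlapped, but both calls depended on single libraries. For ZNF823 the adjusted p was 0.0603 without siMETTL3 replicate 3. For ZNF221 it was 0.0651 without siControl replicate 1, 0.061 without siControl replicate 2, 0.098 without siMETTL3 replicate 1 and 0.0584 without siMETTL3 replicate 3.

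ZNF699 measured 5.15, 6.61 and 5.57 CPM in siControl and 7.63, 7.17 and 8.42 CPM in siMETTL3 (log2 fold change 0.42 ± 0.15 SE; edgeR adjusted p = 0.0406). The groups lay close together at this level. Its adjusted p lay between 0.0567 and 0.148 when any library but siControl replicate 2 was dropped, 5 fits in all, and at 0.0583 in DESeq2. ZNF430 measured 31.4, 33.2 and 27.5 CPM in siControl and 46.5, 35.1 and 40.2 CPM in siMETTL3 (log2 fold change 0.40 ± 0.10 SE; edgeR adjusted p = 0.00893). The siMETTL3 libraries were spread widely, with replicate 2 just above the siControl range, and without siMETTL3 replicate 1 the adjusted p was 0.0625.

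**Figure D3:**
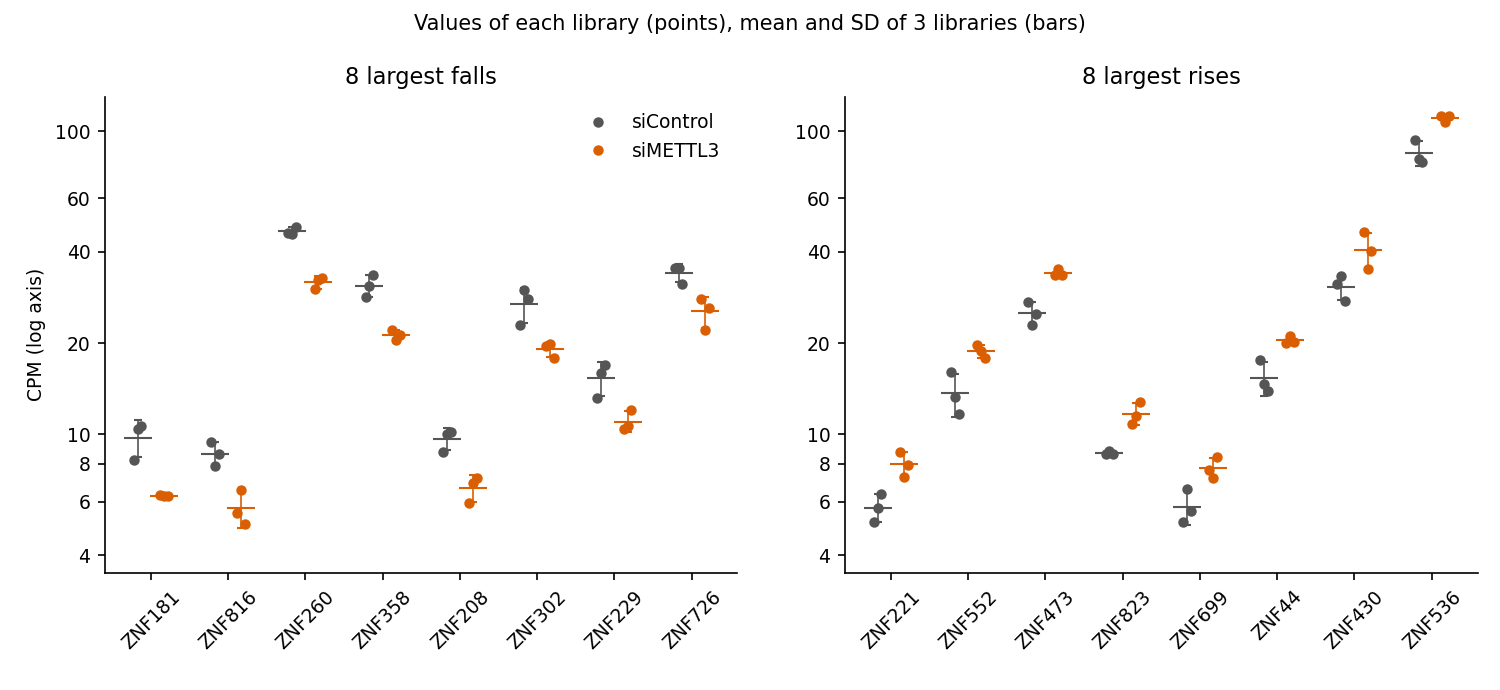
CPM on a log axis in each library for the 8 named genes with the largest falls (left) and the 8 with the largest rises (right); points are libraries, bars the mean and SD of 3 libraries. In all 16 genes the siControl and siMETTL3 points do not overlap, and the distance between groups is under 2-fold.

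Along the chromosome the calls were spread over 8 of the 9 clusters and the scattered genes. Cluster 1 (2819868 to 2944971) had no called gene among 4 tested, and its smallest adjusted p belonged to ZNF57. ZNF57 measured 5.01, 4.25 and 4.25 CPM in siControl and 6.75, 6.15 and 5.02 CPM in siMETTL3, all siMETTL3 libraries being higher (log2 fold change 0.40 ± 0.17 SE; edgeR adjusted p = 0.0786). Cluster 2 (7069703 to 9793180) had 8 called of 15 genes (53.3%, against 37.8% of all genes tested). In each of the fits without siControl replicate 2, siMETTL3 replicate 1 and siMETTL3 replicate 2, 4 were called. Of all genes, 28.4%, 27.2% and 28.1% were called in these fits. With all libraries, ZNF358, ZNF558, ZNF426, ZNF121 and ZNF561 were called lower and ZNF317, ZNF699 and ZNF559 higher. Its lower genes include 3 close neighbours between 9523223 and 9621236, ZNF426, ZNF121 and ZNF561.

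ZNF121, the member with the highest level per kb of gene span, measured 218, 207 and 196 CPM in siControl and 159, 157 and 161 CPM in siMETTL3. The siMETTL3 values lay in a narrow range far below the lowest siControl value. It fell by 23.2% (log2 fold change -0.38 ± 0.06 SE; edgeR adjusted p = 0.000168). ZNF426 fell by 17.5% and ZNF561 by 16.0%, with edgeR adjusted p of 0.0134 and 0.0145. Both of these smaller falls missed the threshold without siControl replicate 2 (0.0556 and 0.0525) and without siMETTL3 replicate 2 (0.0728 and 0.0655), and that of ZNF561 also without siMETTL3 replicate 1 (0.0686). ZNF558, further towards the end of the short arm, measured 23.5 CPM in each siControl library and 19, 19.6 and 17.7 CPM in siMETTL3, a fall of 20.2% (edgeR adjusted p = 0.00981).

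Cluster 3 (11483427 to 12640098) had 3 called among 24 genes tested, ZNF823 and ZNF44 higher and ZNF439 lower. Its median deviation in siControl replicate 3 was -0.18 on the log2 scale, the lowest of any cluster of at least 10 tested genes in any library. Without that library, 7 of its genes were called lower, and 40.5% of all genes were called in either direction. Cluster 4 had 11 called among 33 tested (33.3%, against 37.8% of all genes tested). Lower were ZNF506, ZNF253, ZNF90, ZNF737, ZNF43, ZNF208 and ZNF726, and higher were ZNF14, ZNF682, ZNF430 and ZNF100. Of its 33 fitted fold changes 26 were negative, with a median of -0.10. The transcripts of cluster 4 had the lowest GC content, a median of 37.0%. With an offset for GC content 3 genes of the cluster were called lower in place of 7, and 5 with the replicate block added. Of all genes, 41.9% and 42.5% were called in these fits. The part of GC content in the falls of cluster 4 was not tested. The 4 genes called higher became 1 without siControl replicate 2, without siMETTL3 replicate 1 or without siMETTL3 replicate 2. The shares of all genes called in either direction were then 28.4%, 27.2% and 28.1%. Among the single calls, that of ZNF737 was lost in 9 alternatives and those of ZNF90 and ZNF682 in 6 each.

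ZNF506 had the smallest adjusted p of cluster 4, with 57.9, 58.0 and 53.0 CPM in siControl and 45.2, 43.5 and 47.5 CPM in siMETTL3. All siMETTL3 libraries were lower, by 19.5% in the fit (log2 fold change -0.31 ± 0.07 SE; edgeR adjusted p = 0.00281). ZNF43, whose promoter is printed above, measured 117, 106 and 90.7 CPM in siControl and 86.2, 81.2 and 81.5 CPM in siMETTL3. The groups did not overlap, and the fall of 20.9% had an edgeR adjusted p of 0.00549, or 0.145 with the GC offset. ZNF100 measured 42.9, 39.4 and 40.7 CPM in siControl and 54.4, 53.9 and 44.7 CPM in siMETTL3. It rose by 24.4% (edgeR adjusted p = 0.00898), with siMETTL3 replicate 3 nearest to the siControl range. Its adjusted p was 0.0508 without siControl replicate 2, 0.0612 without siMETTL3 replicate 1 and 0.0579 without siMETTL3 replicate 2. Promoters of genes called lower together in cluster 4 had a median of 80.3% identical bases over 10 pairs, the closest at 81.7%. Promoters of genes called in opposite directions had a median of 72.7% over 20 pairs, and those of genes called higher together 61.3% over 6 pairs, the closest of either kind at 81.0%. These pairs share genes: the 10, 20 and 6 pairs come from 5, 9 and 4 genes. The promoter of ZNF14 stood apart, at 48.0% to 54.3% with those of the other called genes of the cluster that had one. Without ZNF14, the pairs called higher together were identical at 68.3%, 71.0% and 81.0%. Differences between these kinds of pairs were not tested.

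Cluster 5 (34677639 to 34964229) had ZNF302 and ZNF181 lower among 5 genes. Cluster 6 (36182276 to 37817300) had ZNF565, ZNF146, ZNF567 and ZNF607 higher and ZNF260 lower among 27, with 2 called higher without siControl replicate 2, without siMETTL3 replicate 1 or without siMETTL3 replicate 3. Cluster 7 (43525497 to 45076587) had ZNF221 higher and ZNF576 and ZNF229 lower among 23, and 18 of its 23 fold changes were negative. Cluster 8 (51571283 to 53580269) had ZNF816 and ZNF677 lower among 39 genes (5.13%). The call of ZNF677 was lost in 11 alternatives, among them RLE scaling (adjusted p = 0.0502) and DESeq2 (0.0701). Of its fold changes 29 of 39 were negative. Cluster 9 had 8 genes higher (ZNF580, ZNF787, ZNF667, ZNF264, ZNF586, ZNF552, ZNF814 and ZNF8) and ZNF772 lower among 57, with a median log2 fold change of 0.01. Without siMETTL3 replicate 2, 2 genes of cluster 9 were called higher, and without siControl replicate 2, 4 were. Among all genes tested, 18.6% were called higher and 19.2% lower. With a library left out, 27.2% to 41.3% of all genes were called in either direction. Differences between clusters were not tested.

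**Figure D4:**
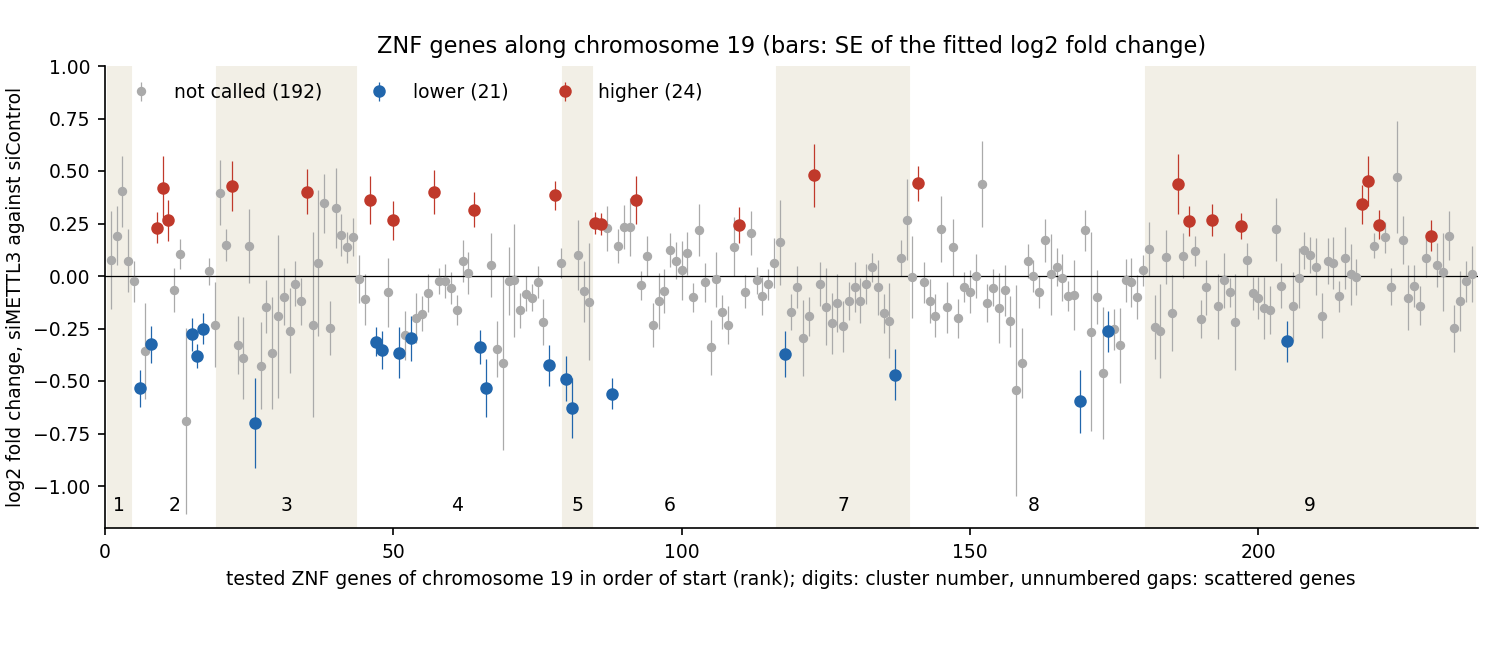
Fitted log2 fold change of siMETTL3 against siControl (vertical axis, bars are the SE) for the 237 tested ZNF genes in order of their start along chromosome 19 (horizontal axis, rank), coloured by call, with alternate clusters shaded and numbered. Called genes of both directions lie side by side in clusters 2, 3, 4, 6, 7 and 9, and no value passes 1 in either direction.

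Library medians show how far each cluster moved as a whole. For each gene the log2(CPM + 1) value of a library was set against the gene's mean over the 6 libraries, and the median of these deviations was taken per cluster. In cluster 5 the siControl medians were 0.02, 0.11 and 0.09 and the siMETTL3 medians -0.19, -0.05 and -0.13. In cluster 7 they were 0.06, 0.06 and 0.01 against -0.10, -0.03 and -0.02. In these clusters every siMETTL3 library lay below every siControl library. The pooled scattered genes separated the other way, with siControl medians of -0.003, -0.005 and -0.09 and siMETTL3 medians of 0.007, 0.06 and 0.04. In clusters 1, 2, 3, 6, 8 and 9 the groups overlapped, and in cluster 4 they met at -0.03, the value of both siControl replicate 3 and siMETTL3 replicate 1. Over all members the siControl medians were 0.07, 0.01 and -0.07, a wider spread than the -0.02, -0.03 and 0.00 of siMETTL3, and the groups overlapped. The siControl library with the lowest median over all members, replicate 3, is also the library with the fewest counts; the part of depth in this was not tested.

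**Figure D5:**
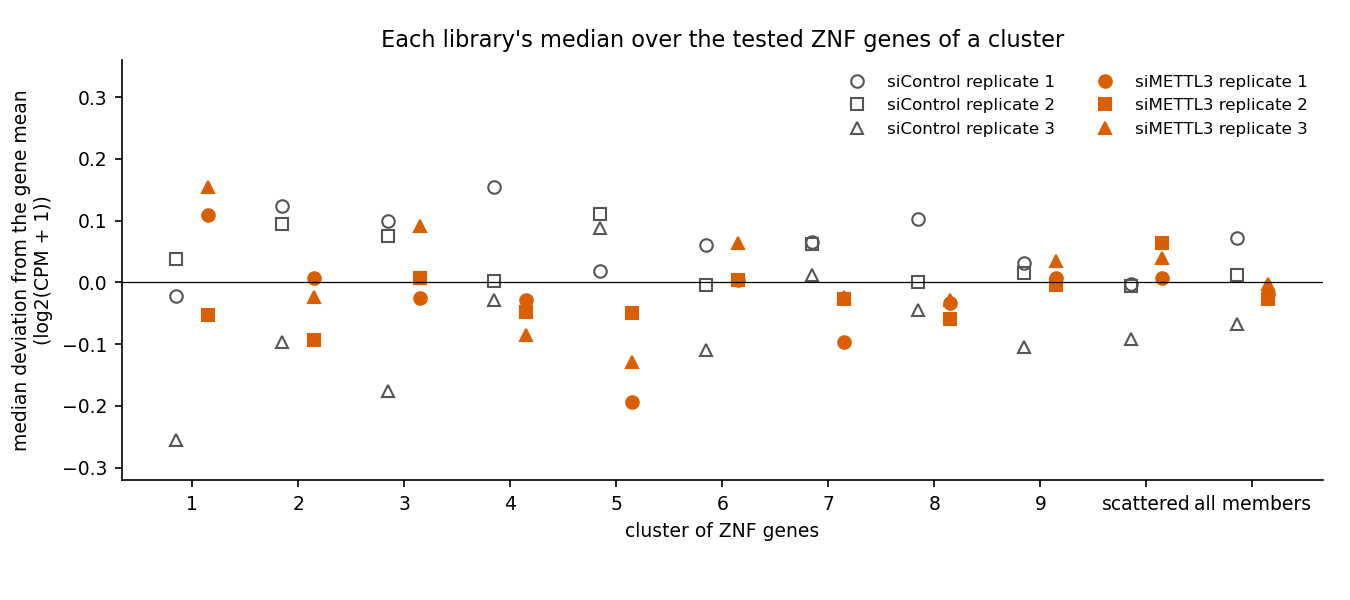
Median deviation of log2(CPM + 1) from each gene's mean over 6 libraries (vertical axis) for the tested ZNF genes of each cluster, the scattered genes and all members (horizontal axis), with 1 symbol per library. siControl symbols are spread most widely, from -0.07 to 0.07 over all members. The siMETTL3 symbols lie below all siControl symbols in clusters 5 and 7 and above them all for the scattered genes.

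Members with a known function in silencing transposable elements did not pass the threshold. ZNF91, which silences SVA retrotransposons, measured 92.4, 83.6 and 91.7 CPM in siControl and 84.1, 78.4 and 86.7 CPM in siMETTL3 (log2 fold change -0.10 ± 0.06 SE; edgeR adjusted p = 0.234). ZNF93, which binds LINE elements, measured 11.0, 7.61 and 7.10 CPM against 7.43, 8.73 and 8.38 CPM (log2 fold change -0.08 ± 0.17 SE; edgeR adjusted p = 0.75). Their groups overlapped. The paralogues ZNF417 and ZNF587 silence endogenous retroviruses of the HERV-K group. ZNF417 measured 24.6, 25 and 24.7 CPM in siControl and 26, 22.8 and 22.9 CPM in siMETTL3 (log2 fold change -0.05 ± 0.09 SE; edgeR adjusted p = 0.692). ZNF587 measured 40.9, 37.9 and 38.0 CPM against 45.3, 46.1 and 41.4 CPM, with every siMETTL3 library higher (log2 fold change 0.18 ± 0.07 SE; edgeR adjusted p = 0.0654). Its adjusted p was 0.0466 with total count scaling and 0.0346 without siControl replicate 1. ZNF587 lies wholly inside ZNF814, which was called higher. The gene model AC010522.1, also called higher, covers part of the ZNF587 span. Nearly all of the ZNF417 span lies under AC010326.3, which was not called. Reads in the shared parts could be counted for each gene, so the values of ZNF587 and ZNF417 may not stand for these genes alone. The remaining members of this list, ZNF649, ZNF765 and ZNF808, had log2 fold changes of -0.19, -0.02 and 0.07. None of the 7 genes was called, against 37.8% of all genes tested. Their log2 fold changes lay between -0.19 and 0.18, with a median of -0.05.

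Of 6 members with known functions of another kind, ZNF473 and ZNF536 were called higher, as described, and the other 4 were not called. The share called was 33.3%, against 37.8% of all genes tested. ZNF274, which binds zinc finger genes themselves and recruits SETDB1 to them, measured 44.2, 38.6 and 33.9 CPM in siControl and 37.1, 33.9 and 35.3 CPM in siMETTL3 (log2 fold change -0.14 ± 0.09 SE; edgeR adjusted p = 0.258). The groups overlapped through siControl replicate 3, and without that library the adjusted p was 0.0247. With the GC offset it was 0.0317. ZNF331, an imprinted gene, had a log2 fold change of 0.03 ± 0.07, and ZNF224, a partner of the transcription factor WT1, one of -0.12 ± 0.09. ZNF382 measured 14.6, 14.5 and 15.8 CPM in siControl and 18.8, 15.8 and 18.1 CPM in siMETTL3 (log2 fold change 0.23 ± 0.10 SE; edgeR adjusted p = 0.0948, or 0.0409 with the GC offset).

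Genes that act with KRAB zinc finger proteins were called in both directions. From a list of 35 corepressors, chromatin enzymes and heterochromatin proteins, 4 were called higher and 9 lower (37.1%; their median was -0.07 on the log2 scale), a share close to the 37.8% of all genes tested. TRIM28, the corepressor that binds the KRAB domain, lies at 58544064 to 58550722, beyond the last gene of cluster 9. It measured 375, 399 and 367 CPM in siControl and 304, 310 and 296 CPM in siMETTL3. All siMETTL3 libraries were lower, at 79.7% of the siControl level in the fit (log2 fold change -0.33 ± 0.06 SE; edgeR adjusted p = 0.00046). SETDB1 measured 85.5, 75.4 and 77.0 CPM in siControl and 81.4, 82.8 and 82.9 CPM in siMETTL3, with overlapping groups (log2 fold change 0.05 ± 0.06 SE; edgeR adjusted p = 0.544).

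The smallest adjusted p values among the lower genes of that list belonged to CHD3, CBX3 and EHMT2. CHD3, the helicase of a NuRD complex that TRIM28 binds, fell to 68.3% of the siControl level (log2 fold change -0.55 ± 0.07 SE; edgeR adjusted p = 3.36e-05). CBX3, a heterochromatin protein, measured 246, 269 and 280 CPM in siControl and 188, 186 and 209 CPM in siMETTL3 (edgeR adjusted p = 0.000152). EHMT2, a histone H3 lysine 9 methyltransferase, fell by 0.41 on the log2 scale (edgeR adjusted p = 0.000182), while its partner EHMT1 rose by 0.37 (edgeR adjusted p = 0.00757). The DNA methyltransferase DNMT3B and the NuRD subunit MTA1 both rose by 0.44 (edgeR adjusted p = 0.00438 and 0.00738). In each of these 6 genes the groups did not overlap, and subunits or partners of the same kind were called in opposite directions. The spans of CBX3, CHD3 and MTA1 overlap those of HNRNPA2B1, NAA38 and TEX22, in that order, and reads in the shared parts could be counted for both genes.

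Overlapping spans touched many members and bear on which calls stand for a single gene. Reads were counted over whole gene spans, for every gene that a read overlapped and without use of strand. Of the 243 members 95 (39.1%) overlap another gene of the tables, against 6603 of all 19923 genes (33.1%). Of 94 tested members with an overlap, 11 were called higher (11.7%) and 4 lower (4.26%), against 15.1% and 20.5% of all tested genes with an overlap. Of 143 without an overlap, 13 were called higher (9.09%) and 17 lower (11.9%), against 20.8% and 18.4% of all such genes. When the fit was made on genes with no overlap, 12 members were called higher and 19 lower, against 19.5% and 19.9% of all genes in that fit, which moves the share of higher among the calls from 53.3% to 38.7%. Members overlapped each other in 25 pairs, 17 of which had fold changes of the same sign. Both genes were called in 2 pairs, 1 gene in 4 pairs and neither in 19.

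The first pair with both called is ZNF565 and ZNF146, on opposite strands, where ZNF146 lies wholly inside ZNF565. ZNF565 measured 155, 152 and 153 CPM in siControl and 184, 179 and 185 CPM in siMETTL3 (log2 fold change 0.25 ± 0.05 SE; edgeR adjusted p = 0.00191). ZNF146 measured 147, 146 and 146 CPM against 175, 170 and 176 CPM (log2 fold change 0.25 ± 0.05 SE; edgeR adjusted p = 0.00227). In every library the count of the inner gene came close to that of the outer gene, so nearly all reads of ZNF565 lay within the span of ZNF146. Both calls therefore rest largely on the same reads. Which of these genes the reads within that span came from cannot be told. The second pair is ZNF586 and ZNF552, also on opposite strands, with ZNF552 wholly inside ZNF586. ZNF586 measured 68.4, 60.3 and 50.1 CPM in siControl and 76.3, 78.1 and 72.9 CPM in siMETTL3 (log2 fold change 0.34 ± 0.09 SE; edgeR adjusted p = 0.0114). The inner gene ZNF552, given above, had a much lower level than the outer one, and without siMETTL3 replicate 2 the adjusted p of ZNF586 was 0.0526.

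In the 4 pairs with 1 called gene, the second gene moved with the called one in some and not in others. ZNF814 was called higher (log2 fold change 0.24 ± 0.07 SE), and ZNF587, wholly inside it on the opposite strand, had 0.18 ± 0.07 (edgeR adjusted p = 0.0654). ZNF587B, with 0.826% of its span shared with the called gene ZNF586, had 0.14 ± 0.06 (edgeR adjusted p = 0.0736). ZNF567 was called higher (log2 fold change 0.36 ± 0.11 SE), while ZNF850, which covers 33.2% of its span on the opposite strand, had -0.04 ± 0.07. ZNF580 was called higher (log2 fold change 0.44 ± 0.14 SE; edgeR adjusted p = 0.0273) although its groups overlapped, at 22.7, 19 and 15.1 CPM against 26.7, 28.9 and 21.8 CPM. ZNF581, which shares 94.8% of the span of ZNF580 on the same strand, had 0.10 ± 0.11. The call of ZNF580 was lost when siControl replicate 2 was left out (adjusted p = 0.0838), and likewise for siMETTL3 replicates 1 (0.0926) and 2 (0.128). ZNF580 and ZNF567 were picked out after their values were seen. Other called members share reads with genes outside the family, among them ZNF8, whose span lies under AC020915.5. ZNF8 measured 94.6, 85.1 and 77.5 CPM in siControl and 95, 97.6 and 102 CPM in siMETTL3 (edgeR adjusted p = 0.0493) and lost its call in 8 of the 14 alternatives that could test it, with adjusted p up to 0.176.

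Near-identical copies are a further source of uncertain counts in this family. No option to count reads that map to several places was set, so reads placed equally well on several paralogues were not counted for any of them. Of the 243 members, 175 share at least one 50-letter stretch of their canonical transcript with the transcript of a gene that does not overlap them. The shared part was small for most, with a median of 1.03% of stretches, and exceeded 10% for 20 members. ZNF98 had the largest share, 55.3%, nearly all of it with ZNF492. ZNF417 and ZNF587 followed this pattern at 36.2% and 24.7%, and ZNF443 and ZNF799 at 36.1% and 32.9%. Of the called members 2 exceeded 10%, ZNF552 at 18.4% and ZNF814 at 10.02%, so for most calls few stretches of the canonical transcript were shared at this length. Introns, other transcripts and genes outside the count tables were not searched, so ambiguity over the whole counted spans was not measured.

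The transcripts of members also share a layout. Their canonical transcripts have a median of 4 exons, against 9 for all genes tested, and a longest exon of 3338 bases against 1711. That exon makes up a median of 88.7% of the transcript, against 55.4%, and in zinc finger genes of this kind it encodes the finger array. The letters ACNGGNGANAANCCNTA, which encode the linker between fingers, occurred on the transcript strand of 201 of the 237 tested members, with a median of 5 copies. They occurred in 2.76% of all genes tested. Median GC content was 42.3% against 48.6%, and the letters GGACT, a common form of the sequence that METTL3 methylates, occurred 0.69 times per kb against 0.93. Across the 237 members, which share libraries and depth, Spearman's rho of the log2 fold change was 0.18 with GC content, -0.15 with linker copies, 0.09 with GGACT per kb and 0.01 with the length of the longest exon. Over all genes tested rho with GC content was also 0.18. The presence of GGACT letters says nothing of whether a transcript was methylated, which was not measured in these libraries.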

How the data were processed

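RNA-seq was measured in 6 libraries of Kelly cells, grouped by their titles into siControl and siMETTL3. The deposited values were raw counts per gene. Per the file headers, the authors counted with featureCounts v1.5.3 over whole gene spans of a GENCODE release 33 annotation, for every gene a read overlapped, without strand and without reads placed at several sites. Per the submitters' processing notes, tools included Trimmomatic 0.36 and HISAT2 2.1.0 on GRCh38.

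Here, counts were filtered (filterByExpr, 15311 genes kept), scaled with TMM factors (trimmed mean of M-values) and tested in edgeR 4.0.16 (R 4.3.3; glmQLFit, robust, no covariate; Benjamini-Hochberg over all 15311 genes, threshold 0.05). The design holds 1 comparison, siMETTL3 against siControl. The SE is the absolute log2 fold change over the square root of F. CPM values use the scaled library size; figures add 1 before logs. The fit was tested on simulated data. Replicates of a group differed by more than sampling noise (chi-square per degree of freedom 3.05 to 16.1). Transcript features came from canonical transcripts of GENCODE release 44, found for all 237 tested members and 95.3% of all tested genes. Promoters were aligned with Biopython 1.88.

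The members and gene lists were chosen with earlier results of these data known. Named genes were METTL3, both lists of members with known functions, the 8 largest changes in each direction among called genes (log2 CPM of at least 2, groups without overlap), the smallest adjusted p per cluster, the 5 highest levels per kb of gene span, overlapping members both called, and cofactors (3 per direction, TRIM28, SETDB1). Alternatives were other scalings and filters, DESeq2 1.42.0, a replicate block, genes without overlap, a GC offset, other cluster gaps and each library left out.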

Additional observations from a re-analysis of the deposited data

How the results depend on the processing

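Of the 45 called members, 18 kept their call under every setting that could test them, and no called member changed sign in any. Of these 18, ZNF146, ZNF358, ZNF473, ZNF552, ZNF565 and ZNF816 overlap other genes and were not in the fit on genes without overlap. Calls were lost in 24 of 390 values under other settings and in 77 of 270 values with a library left out. With a library left out, 27.2% to 41.3% of all genes were called, against 37.8% with all libraries. Leaving out a library gave 12 to 28 members called higher and 16 to 31 lower, 8 to 17 called among overlapping members, 0 to 1 called in the transposable element list, and medians of -0.27 to -0.11 in cluster 2, -0.31 to -0.0448 in cluster 5, 0.0223 to 0.14 in cluster 6 and -0.0418 to 0.0519 for scattered genes. On genes without overlap 12 members were called higher, 2 cofactors were called higher and 1 gene of the list with other known functions was called, and the medians of clusters 3 and 6 were -0.19 and -0.0611; fewer genes enter that fit. With the GC offset 4 genes of the latter list were called, and the medians of clusters 5 and 7 were -0.21 and -0.0754. With the GC offset and the replicate block together they were -0.21 and -0.0731, that of cluster 4 was -0.0258, and 4 genes of the same list were called; the cause was not tested. Total count scaling called 1 gene of the transposable element list. A gap of 2 Mb between clusters gave medians of -0.0989 for cluster 2, 0.00514 for clusters 5 and 6 joined, and -0.075 for cluster 7, since clusters merge.

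Same-numbered libraries deviated together only weakly: correlations of their deviations from the group means were 0.04, 0.05 and 0.07. Correlations between libraries of different number ran from -0.06 to 0.03. The labels do not say what a number stands for, so by the labels the libraries share only a number. Each library correlated best with its own number, a hint from the data and not from the design. With the replicate number as a block, 26 members were called higher and 22 lower, all 45 of the main calls among them, and no count moved by over 1.5 times. With 3 libraries a group and a median SE of 0.11 on the log2 scale, the smallest change called among members was 0.19, so a member without a call is not shown to be unchanged.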
